A study of Mus musculus with 8 samples.

Results

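Transcripts of translation initiation factors (eIF1 to eIF6) and elongation factors (eEF1 and eEF2) were compared between regulatory T cells with and without Raptor. No factor that could be tested passed the test. The factors were taken by name from the platform's gene symbols. The set left out the 4E binding proteins, the eIF2 kinases, the eEF2 kinase, pseudogenes and the sex-linked genes Eif2s3x and Eif2s3y. This gave 43 genes with 85 probe sets, of 17097 genes on the array, and 41 of them were bright enough to be tested among 11413 genes. A further 11 probe sets list a factor beside another gene, among them those for Eif5b and Eif4a2, and were not used. The 85 probe sets hold none for Eif1, Eif2s1, Eif2b3, Eif3a, Eif3g or Eif4g1, so these factors were not compared. The names also take in 3 methyltransferases of eEF1A, which modify a factor and are not factors themselves.

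The cells were sorted as CD4+CD25+ from spleen and peripheral lymph nodes of C57Bl/6J mice and used without treatment. The WT group holds 4 arrays from wild-type mice, and the RaptorKO group 4 arrays from CD4(cre)Raptor(fl/fl) mice. In the latter Cre acts under Cd4, which is active early in T cell development, so that the deletion is not limited to regulatory T cells. CD4+CD25+ is a surface gate for regulatory T cells that does not use Foxp3. The labels give neither the age of the mice nor whether each sample is a different mouse. The p-values therefore rest on the spread among the 4 samples of a group, part of which may be technical. They also draw on a spread shared across all genes tested. In bulk samples fewer cells of a type and less RNA per cell cannot be told apart.

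Translation starts when the small ribosomal subunit, carrying eIF1, eIF1A, eIF3, eIF5 and the initiator tRNA held by eIF2, is recruited to a capped mRNA by the complex of eIF4E, eIF4G and the helicase eIF4A. In elongation eEF1A delivers each aminoacyl-tRNA, eEF1B recharges eEF1A with GTP, and eEF2 moves the ribosome along. The kinase complex mTORC1, which needs Raptor, is best known for acting on this machinery through proteins: it phosphorylates the 4E binding proteins, which otherwise sequester eIF4E, and it restrains the kinase of eEF2. Many mRNAs of elongation factors are themselves translated under mTORC1 control. The arrays measure transcripts only, and say nothing of phosphorylation or of the rate of translation.

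The values are log2 probe set intensities, and the medians of the 8 arrays lay between 5.21 and 5.29. Rptor, the targeted gene, was read by the brighter of its 2 probe sets, and the dimmer is not given here. It ranged from 6.75 to 7.03 in WT and from 6.47 to 6.95 in RaptorKO (difference -0.23, limma adjusted p = 0.491). The position of its probes relative to the deletion is not known here. Regulatory T cell markers had mean levels of 10.45 to 10.60 in WT and 10.50 to 10.64 in RaptorKO. No marker of the cell types examined was called. The array means of 3 T cell markers did not overlap (10.89 to 11.04 in WT, 10.74 to 10.87 in RaptorKO), and all 3 had a lower mean in RaptorKO, as did the 3 markers of conventional CD4 T cells (9.01 to 9.33 and 8.85 to 9.33) and both CD8 markers (6.32 to 8.07 and 6.08 to 7.03). A higher mean in RaptorKO was seen for 10 of 11 myeloid markers (5.17 to 5.91 in WT, 5.61 to 6.19 in RaptorKO) and 3 of 4 B cell markers (5.14 to 6.66 and 5.90 to 6.41), while 2 erythroid markers split (6.04 to 7.17 and 6.84 to 7.25). The part of these markers in the factor values was not tested. Replicates 1 and 2 of both genotypes had high Xist (10.88 to 11.18), while replicates 3 and 4 had low Xist (5.04 to 5.62) and high Eif2s3y (7.70 to 8.19).

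RaptorKO was compared with WT with limma, a linear model that shares information on the spread across genes, with Benjamini-Hochberg adjustment over all 11413 genes. Differences are log2 values, RaptorKO less WT. At an adjusted p under 0.05, 0 of 41 factors were called, against 1.96% of all genes tested (0.824% higher and 1.14% lower in RaptorKO). At an unadjusted p under 0.05 there were 2 of 41 (4.88%), 1 with a higher and 1 with a lower mean in RaptorKO, against 13% of all genes. Both are methyltransferases of eEF1A. The smallest adjusted p over the 41 was 0.19. With an intensity trend in the variance model 1 factor of 41, Eef1b2, was called (0.18, limma adjusted p = 0.0409). That fit called 3.24% of all genes. Under the other alternatives the limma adjusted p of Eef1b2 was 0.257 to 0.65.

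The differences lay on both sides of 0, with 20 factors higher and 21 lower in mean. Their median was -0.0073, beside -0.0092 over all genes tested. The size of the difference, sign removed, had a median of 0.087 for the factors and 0.11 for all genes, and 37 factors (90.2%) differed by less than 0.2, against 74.9% of all genes. The factors were also brighter, with a median level of 8.92 against 6.60, and varied less between arrays of a group, with a median SD of 0.12 against 0.18; the part of brightness in the smaller differences was not tested.

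**Figure D1:**
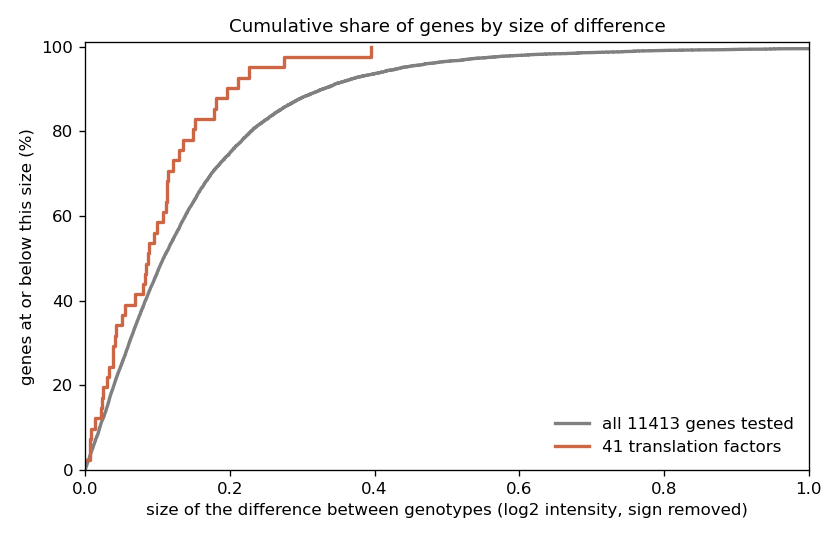
Cumulative share of genes (vertical axis, percent) at or below a given size of difference between RaptorKO and WT (horizontal axis, log2 intensity with the sign removed), for the 41 tested factors and for all 11413 genes tested. At 0.2 the line of the factors has reached 90.2% and that of all genes 74.9%; the line of the factors ends at 0.40 (Eef1akmt1, -0.40).

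A p-value that misses the threshold does not show that levels were equal, so the confidence intervals were used to bound the differences. The array medians were nearly equal, so the intervals bound levels relative to the other transcripts and not amounts per cell. The 95% interval lay within 1.5-fold in either direction for 40 of 41 factors, the exception being Eef1akmt1, and within 1.2-fold for 7 of 41. Over all genes tested the shares were 85.2% and 7.90%, against 97.6% and 17.1% of the factors. The standard error of the difference ranged from 0.088 to 0.18 over the factors. It draws on the spread of all genes, so for tightly measured factors it can exceed what their own arrays give. For Eef1b2 it was 0.089, larger than its SD in WT (0.068) or in RaptorKO (0.021). The intensity trend, under which Eef1b2 was called, lets this shared spread vary with brightness. The smallest difference called in any of the 11413 genes was 0.41, larger than that of any factor.

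**Figure D2:**
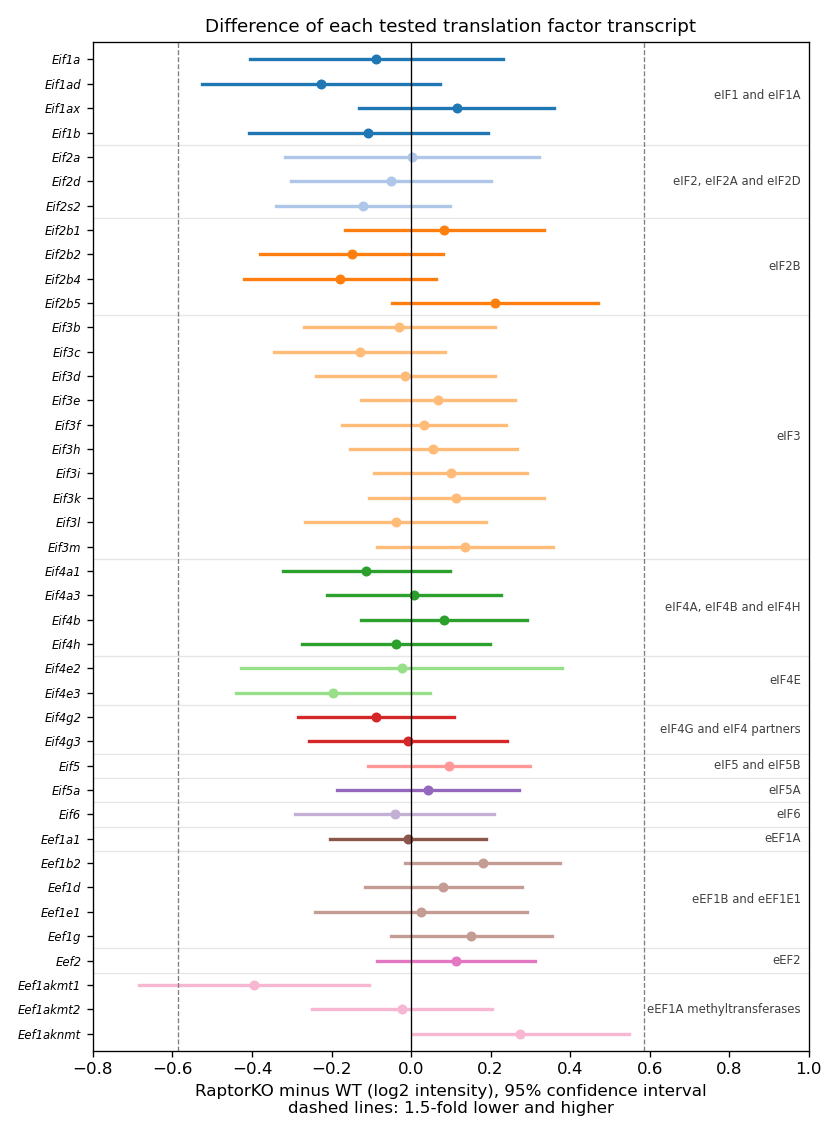
Difference between RaptorKO and WT (horizontal axis, log2 intensity) for each of the 41 tested factors, grouped by role. Points are estimates, bars are 95% confidence intervals, and dashed lines mark 1.5-fold; 40 of 41 intervals lie within them, and all but those of Eef1akmt1 and Eef1aknmt include 0.

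Among the 4 genes with an eIF1 name, differences ranged from -0.23 to 0.11 (lowest limma adjusted p = 0.552). Eif1b, a close paralog of Eif1, read 8.84, 8.43, 8.56 and 8.69 in WT 1 to WT 4 and 8.48, 8.86, 8.27 and 8.49 in RaptorKO 1 to RaptorKO 4. The highest and the lowest value both came from RaptorKO, and the groups overlapped (difference -0.11, SE 0.14). Eif1ad, which encodes a protein with an eIF1A-like domain, read 6.99, 6.54, 6.84 and 6.97 in WT and 6.66, 6.71, 6.29 and 6.77 in RaptorKO, a difference of -0.23 (SE 0.14, limma adjusted p = 0.552). Its lowest WT array, WT 2, lay below 3 of the 4 RaptorKO arrays.

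The eIF2 complex brings the initiator tRNA, and eIF2B is the exchange factor that reloads it with GTP and is inhibited when eIF2 is phosphorylated in stress. Eif2s2, the beta subunit, read 9.51, 9.27, 9.51 and 9.47 in WT and 9.28, 9.44, 9.32 and 9.23 in RaptorKO. Here 3 WT arrays lay above every RaptorKO array and WT 2 lay among them (difference -0.12, SE 0.10, limma adjusted p = 0.705). Eif2a, an alternative initiator tRNA carrier that is distinct from the alpha subunit of eIF2, differed by 0.0019 (SE 0.15) but spread from 6.41 to 7.09 in WT; it was chosen for mention after its values were seen. The 4 eIF2B subunits tested split evenly in direction, from -0.18 to 0.21. Eif2b5, the catalytic epsilon subunit, read 5.28, 5.13, 5.03 and 5.44 in WT and 5.32, 5.48, 5.61 and 5.30 in RaptorKO (difference 0.21, SE 0.12, limma adjusted p = 0.514). Its values were dim, and WT 4 lay within the RaptorKO range.

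The scaffold eIF3, the largest initiation factor, was represented by 10 subunits, of which 6 had a higher and 4 a lower mean in RaptorKO. Their differences spanned only -0.13 to 0.14, with a median of 0.045, and adjusted p-values of 0.662 to 0.976 in the limma fit. Eif3m read 9.31, 9.12, 9.31 and 9.26 in WT and 9.49, 9.46, 9.37 and 9.23 in RaptorKO (difference 0.14, SE 0.10). Only RaptorKO 4 lay inside the WT range. At the other end Eif3c, a core subunit taken as the lower extreme after its values were seen, read 10.84, 10.76, 10.88 and 10.71 in WT and 10.66, 10.82, 10.59 and 10.60 in RaptorKO (difference -0.13, SE 0.098). No interval in this group reached beyond -0.34 or 0.36.

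The 8 tested genes with an eIF4 name differed by -0.20 to 0.083. They include members of the cap-binding complex and relatives outside it, such as Eif4a3, the helicase of the exon junction complex. Eif4a1, the main helicase, read 11.42, 11.47, 11.49 and 11.32 in WT and 11.35, 11.41, 11.18 and 11.31 in RaptorKO (difference -0.11, SE 0.096, limma adjusted p = 0.719). The groups overlapped, with WT 4 below RaptorKO 1 and RaptorKO 2. The probe set of its paralog Eif4a2 lists a further gene and was not used. Eif4e, the cap-binding protein itself, had a single probe set that exceeded the filter on 2 arrays only and was not tested. It read 4.55 to 4.80 in WT and 4.30 to 4.90 in RaptorKO, close to the filter values of 4.69 to 4.81, so its transcript was not measured usefully here.

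Eif4e2, a paralog that binds the cap without forming the initiation complex with eIF4G and is known as a repressor, had the widest spread of any factor. It read 8.83, 8.78, 8.77 and 8.70 in WT and 8.85, 9.26, 8.16 and 8.71 in RaptorKO. The WT arrays lay close together, while RaptorKO 2 was above and RaptorKO 3 below all of them, so the mean difference of -0.024 (SE 0.18) hides an SD of 0.45 in RaptorKO beside 0.052 in WT. In 3 of its 4 other probe sets the SD was also larger in RaptorKO, for example 0.20 against 0.040 in one with WT mean 8.04. Eif4e3, the third family member, read 7.84, 7.51, 7.78 and 7.89 in WT and 7.60, 7.45, 7.69 and 7.49 in RaptorKO. The WT arrays other than WT 2 lay above all RaptorKO arrays (difference -0.20, SE 0.11, limma adjusted p = 0.519).

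The eIF4G scaffolds were represented by Eif4g2, a shorter relative that lacks the eIF4E binding region, and Eif4g3. Eif4g1 had no probe set among those used. Eif4g2 read 10.80, 10.77, 10.82 and 10.87 in WT and 10.64, 10.71, 10.77 and 10.78 in RaptorKO, a difference of -0.088 (SE 0.090, limma adjusted p = 0.783). WT 2 was level with the upper RaptorKO arrays, and the other WT arrays lay above all of them. Eif4g3 read 8.96, 8.64, 9.08 and 9.00 in WT and 8.95, 8.99, 8.81 and 8.89 in RaptorKO (difference -0.0073, SE 0.11). One dimmer Eif4g3 probe set, singled out after its values were seen, read 6.12 ± 0.30 in WT and 5.66 ± 0.25 in RaptorKO (SD, n = 4; difference -0.45, limma over all probe sets, adjusted p = 0.248), so the value for this gene depends on the probe set.

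Eif5, which triggers GTP hydrolysis on eIF2 when the start codon is found, read 10.18, 10.10, 10.17 and 10.03 in WT and 10.26, 10.28, 10.22 and 10.10 in RaptorKO (difference 0.096, SE 0.093, limma adjusted p = 0.769). RaptorKO 4 lay inside the WT range and the other RaptorKO arrays above it. In the fit of every probe set, all 5 of its probe sets had a higher mean in RaptorKO, by 0.096 to 0.27, and none was called. The probe set with the largest difference read 9.92 ± 0.074 in WT and 10.19 ± 0.034 in RaptorKO (SD, n = 4; limma over all probe sets, adjusted p = 0.204).

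Eif5a, which relieves stalled ribosomes and carries the amino acid hypusine, read 10.59, 10.52, 10.63 and 10.42 in WT and 10.62, 10.76, 10.52 and 10.42 in RaptorKO, a difference of 0.043 (SE 0.11). Its probes may also read a related sequence, as the suffix of the probe set name marks. The same holds for the probe sets used for Eef1d, Eif3m, Eif4g2 and Eif4h. Eif6, which keeps the ribosomal subunits apart, read 8.30, 8.08, 8.17 and 8.35 in WT and 8.25, 8.32, 8.24 and 7.93 in RaptorKO (difference -0.041, SE 0.11). For both genes the groups covered much the same range.

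The core elongation factors were bright and tightly measured. Eef1a1, the main carrier of aminoacyl-tRNA, read 12.76, 12.73, 12.85 and 12.85 in WT and 12.76, 12.73, 12.83 and 12.84 in RaptorKO. The genotypes covered nearly the same range (difference -0.0082, SE 0.090, 95% interval -0.21 to 0.19). In both genotypes replicates 3 and 4 lay above replicates 1 and 2, by 0.095 (limma, term for these sets, adjusted p = 0.818; 0.158% of all genes were called for this term). Eef1a2, the isoform of muscle and neurons, lay under the filter on all 8 arrays (4.33 to 4.67) and was not tested.

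The exchange complex eEF1B reloads eEF1A, and its 3 subunits and Eef1e1, a scaffold protein of the aminoacyl-tRNA synthetase complex, all had a higher mean in RaptorKO, by 0.025 to 0.18. Eef1b2, a catalytic subunit, read 11.56, 11.48, 11.58 and 11.65 in WT and 11.76, 11.77, 11.73 and 11.73 in RaptorKO. Every RaptorKO array lay above every WT array, and Eef1b2 was the only factor of 41 (2.44%) whose groups did not overlap, against 8.82% of all genes tested. The difference was 0.18 (SE 0.089, 95% interval -0.014 to 0.38, limma adjusted p = 0.431), or 1.13-fold. Eef1g, the structural gamma subunit, named after its values were seen, read 11.87, 11.73, 11.77 and 11.82 in WT and 11.95, 12.03, 11.97 and 11.84 in RaptorKO, with only RaptorKO 4 inside the WT range (difference 0.15, SE 0.093, limma adjusted p = 0.557).

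Eef2, the translocase and the substrate of the kinase Eef2k, read 11.81, 11.65, 11.80 and 11.79 in WT and 11.80, 11.89, 11.92 and 11.89 in RaptorKO (difference 0.11, SE 0.091, limma adjusted p = 0.697). WT 2 stood below the other WT arrays, and 3 of 4 RaptorKO arrays lay above all WT arrays.

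**Figure D3:**
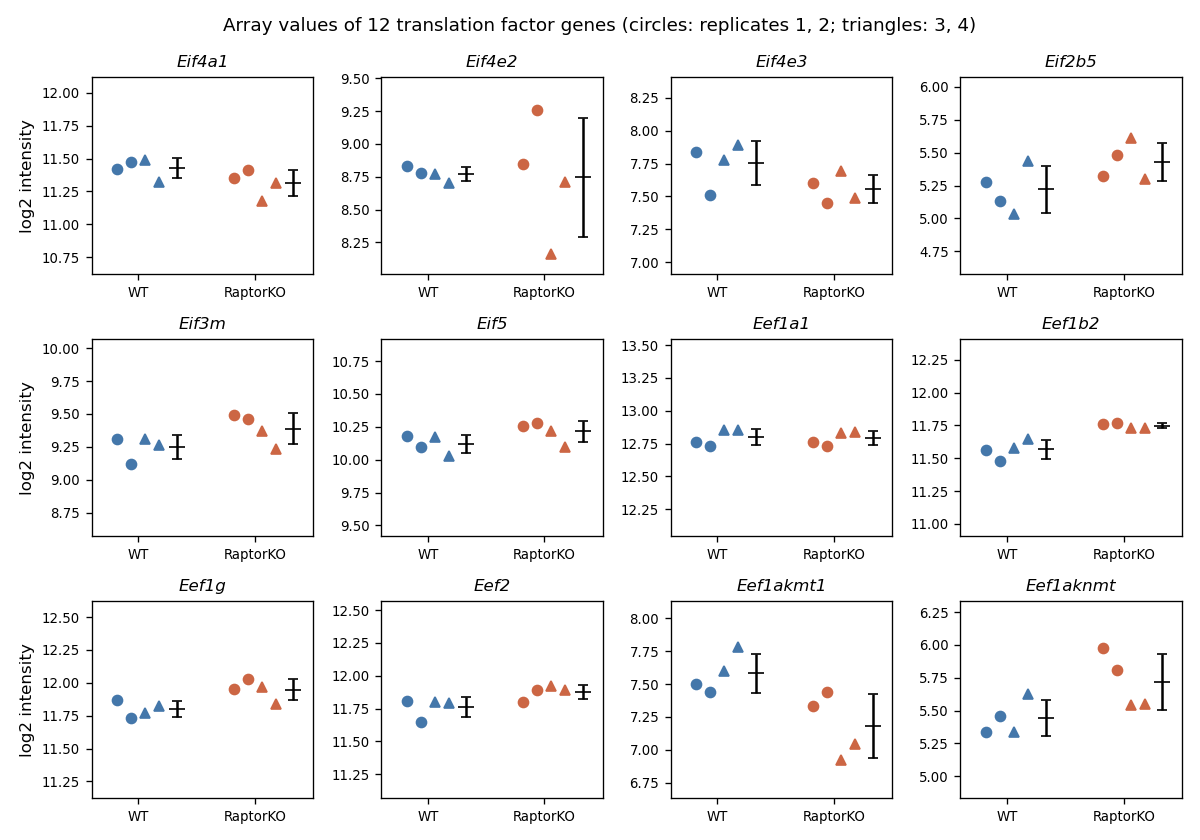
Log2 intensity (vertical axis, 1.5 log2 units in each panel) of 12 factor genes in WT and RaptorKO. Circles are replicates 1 and 2, triangles replicates 3 and 4, and the bar beside each group is the mean ± SD (n = 4). Eef1b2 is the only gene shown whose groups do not overlap, and Eif4e2 spreads from 8.16 to 9.26 in RaptorKO.

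The widest differences came from the methyltransferases that modify eEF1A on lysine. Eef1akmt1 read 7.50, 7.44, 7.60 and 7.78 in WT and 7.33, 7.44, 6.92 and 7.04 in RaptorKO (difference -0.40, SE 0.13, 95% interval -0.69 to -0.11, limma adjusted p = 0.19). RaptorKO 3 and RaptorKO 4 lay well below all WT arrays, while RaptorKO 2 was level with WT 2. A dimmer probe set of the gene differed by -0.28. Eef1aknmt, whose product also methylates the N-terminus of eEF1A, read 5.34, 5.46, 5.34 and 5.63 in WT and 5.98, 5.81, 5.54 and 5.55 in RaptorKO (difference 0.27, SE 0.13, limma adjusted p = 0.38). Here RaptorKO 1 and RaptorKO 2 were the high arrays, and the other RaptorKO arrays lay inside the WT range. Its other probe sets, both dimmer, differed by 0.033 and 0.0038, so the value depends on the probe set. The remaining gene of this group, Eef1akmt2, differed by -0.023.

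The median difference of the factors had opposite signs in replicates 1 and 2 and in replicates 3 and 4, the sets that differ in sex-linked transcripts. Within replicates 1 and 2, the RaptorKO mean was the higher one for 31 of 41 factors and the median was 0.12, beside 0.021 over all genes tested there. Within replicates 3 and 4, 10 of 41 did, with a median of -0.073, beside -0.039 over all genes. With arrays left out within a set, a check added after the values were seen, the median in replicates 1 and 2 was 0.054 without WT 2 (24 of 41 higher), 0.075 without RaptorKO 2 and 0.19 without WT 1. In replicates 3 and 4 it lay between -0.10 and -0.051. WT 2 is one of only 2 WT arrays in its set. In limma fits within the sets, 0 factors were called in replicates 1 and 2 (0.113% of all genes) and 0 in replicates 3 and 4 (0.757% of all genes). At an unadjusted p under 0.05 there were 1 and 2 factors. The share of all genes at that threshold was not taken within the sets, so these counts have no background. The difference between the sets was tested gene by gene as an interaction in limma: 0 of 41 factors passed (lowest adjusted p = 0.334), as did 0 of all genes, and at an unadjusted p under 0.05 there were 2 of 41 factors against 11.4% of all genes. These were Eef1akmt1, with -0.084 in replicates 1 and 2 and -0.71 in replicates 3 and 4, and Eif2a, with 0.30 and -0.30. The sign was the same in both sets for 20 of 41 factors, 10 higher and 10 lower in RaptorKO. Among the former were Eef1b2 (0.24 and 0.12), Eef1g (0.19 and 0.11), Eef2 (0.12 and 0.11) and Eif2b5 (0.20 and 0.23). Among the latter were Eif3c (-0.057 and -0.20), Eif4e3 (-0.15 and -0.24) and Eif4g2 (-0.11 and -0.070).

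**Figure D4:**
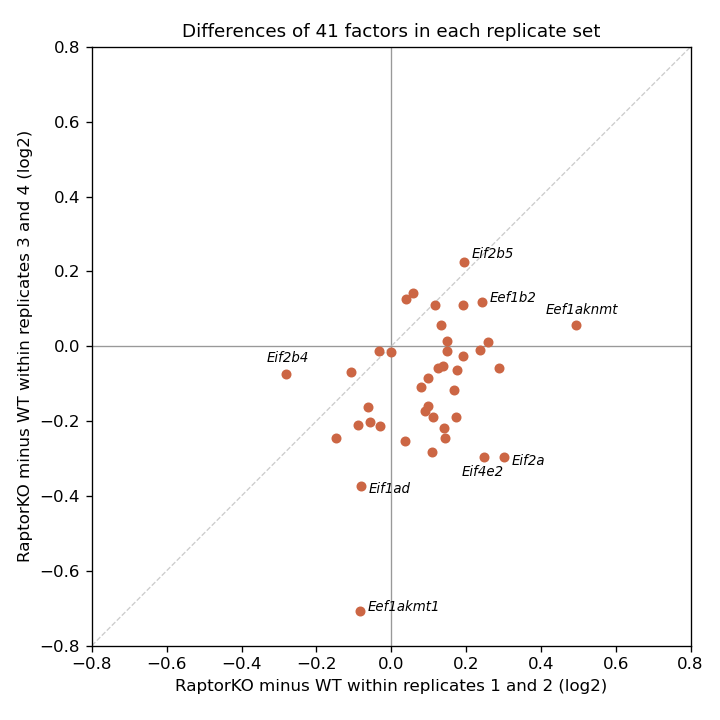
Difference between RaptorKO and WT (log2) within replicates 1 and 2 (horizontal axis) and within replicates 3 and 4 (vertical axis), a point for each of 41 factors; the dashed line marks equal differences. Of 41 points 31 lie to the right of 0 and 10 lie above 0, with Eef1akmt1 lowest at -0.71.

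WT 2 stood apart for these genes. On that array 36 of 41 factors lay below their own mean over 8 arrays, with a median deviation of -0.12, while the other arrays had medians between -0.036 and 0.081. Over all genes tested the deviation of WT 2 was -0.018. WT 2 also had the highest mean level of the 8 arrays for markers of B cells (6.66), CD8 T cells (8.07) and NK cells (5.25); their part in the lower factor levels was not tested. Without WT 2 the median difference of the factors was -0.040, and 0 factors were called. Without WT 3, at the other end, the median was 0.028 and again 0 were called.

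**Figure D5:**
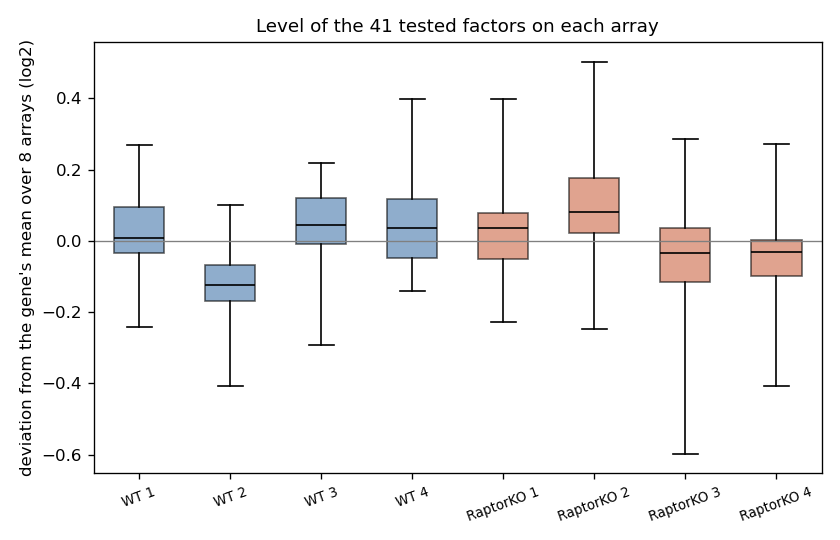
Deviation of the 41 tested factors from their own mean over 8 arrays (vertical axis, log2), by array. Boxes span the quartiles, lines inside them are medians and whiskers reach the extremes; the median of WT 2 is -0.12 and the others lie between -0.036 and 0.081.

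Start regions were compared as a feature that the choice of genes did not use. RefSeq start windows (250 bases before to 50 after each annotated start, GRCm38.p6) were found for 33 of the 43 genes, in 42 windows. The heptamer CCGGAAG, the core recognised by ETS factors, occurred on either strand in 14 of 42 windows (33.3%), against 16.8% of windows of all genes tested on the array and 8.86% of all 32851 windows. The E-box CACGTG, which reads the same on both strands and is bound by Myc and related factors, occurred in 11 of 42 (26.2%), against 9.71% and 7.15%. TATAAA, sought only in the direction of transcription, occurred in 3 of 42 (7.14%), against 4.67% and 8.32%. Windows of a gene with several starts overlap, as for the 6 of Eif5a, and a match is a description, not a bound site. The sequences below run from 40 bases before to 20 bases from the annotated start, for genes picked by hand. They cover the eEF1B subunit whose groups did not overlap, an eIF2B subunit, the eIF4E paralog with the widest spread, and the main elongation factors. How many of these carry a motif is no measure of the share over the set. Capitals mark CCGGAAG or TATAAA.
Eef1b2, chr1:63176791-63176850, plus strand: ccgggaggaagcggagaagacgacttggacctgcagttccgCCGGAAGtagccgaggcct
Eif2b4, chr5:31193120-31193179, minus strand: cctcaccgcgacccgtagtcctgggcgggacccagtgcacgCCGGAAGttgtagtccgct
Eif4e2, chr1:87213871-87213930, plus strand: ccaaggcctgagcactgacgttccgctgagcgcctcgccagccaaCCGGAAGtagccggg
Eef2, chr10:81176591-81176650, plus strand: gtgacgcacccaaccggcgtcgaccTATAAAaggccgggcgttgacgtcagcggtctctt
Eef1a1, chr9:78481705-78481764, minus strand: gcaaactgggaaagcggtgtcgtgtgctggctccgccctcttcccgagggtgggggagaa
Eef1b2, Eif2b4 and Eif4e2, of the 12 genes with the heptamer, each carry it just after the start shown. Eif4e2 has 3 annotated starts, of which the first is shown, and the heptamer lies upstream of the last. Eef2 has TATAAA upstream of its start, and Eef1a1 has none of the 3 motifs in the stretch shown.

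Regulators and partners of the factors were taken from a list of 41 genes chosen by role, of which 37 were tested. A single gene, higher in RaptorKO, was called, or 2.70% against 1.96% of all genes, and the median difference was -0.0086. Eef2k, the kinase that slows elongation by phosphorylating eEF2, read 7.44, 7.56, 7.45 and 7.12 in WT and 8.52, 8.25, 8.09 and 8.30 in RaptorKO. It rose by 0.90 (SE 0.13, limma adjusted p = 0.00353), or 1.87-fold, with every RaptorKO array above every WT array, while the transcript of its substrate Eef2 differed by 0.11. Its probe set may also read related sequences, and the mean of its probe sets differed by 0.54 (limma adjusted p = 0.00572). The rise of Eef2k was 0.89 within replicates 1 and 2 (limma adjusted p = 0.136) and 0.92 within replicates 3 and 4 (limma adjusted p = 0.0581).

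The groups did not overlap in 6 of the 37 regulators (16.2%), against 8.82% of all genes. Among them Pdcd4, an inhibitor of the helicase eIF4A that is destroyed downstream of mTORC1, read 11.72, 11.65, 11.63 and 11.61 in WT and 11.28, 11.28, 11.38 and 11.27 in RaptorKO (difference -0.35, SE 0.089, limma adjusted p = 0.0738). It was named after its values were seen, as were the 4E binding proteins, the direct targets of mTORC1. Pdcd4 was called with an intensity trend (limma adjusted p = 0.000622) and with the mean of probe sets (0.0431), and its adjusted p lay between 0.0521 and 0.368 under the other alternatives. Pdcd4 has 1 probe set, so averaging left its own values unchanged and altered only the other genes in the fit. Eif4ebp1 differed by 0.16 (SE 0.12) and Eif4ebp2 by -0.066 (SE 0.11), and for both the groups overlapped.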

How the data were processed

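Total RNA of 8 sorted samples was amplified, biotinylated and hybridised to 1-colour arrays, 1 sample each (per the labels' protocols). The authors deposited 1 table of log2 intensities per probe set, made with RMA per the submitters' processing notes, a method that usually normalizes between arrays. No label gives its version. Of 45141 probe sets, 28898 name a single gene; 28689 were updated to RefSeq symbols through Entrez identifiers. Each gene took its brightest probe set, and was tested if this lay above the 40th percentile of the array in 4 or more arrays. The comparison used limma 3.58.1 in R 4.3.3, tested on simulated data. Sequences are from RefSeq (GRCm38.p6). The number of arrays limits the precision.

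Members and lists were chosen with earlier results of these data known. Named genes were all called or non-overlapping members, the 3 largest differences in each direction, the smallest p in each role and close paralogs. Same-numbered WT and RaptorKO samples had deviations correlated at 0.16, -0.15, 0.11 and 0.026, so the numbers were not taken as pairs. Alternatives were a replicate block, other probe set rules, filters, normalizations and variance models, a set term, fits within sets and leaving out each array. Figures used matplotlib 3.10.9.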

Additional observations from a re-analysis of the deposited data

Results flagged for a closer look

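In WT, Eef2 read 11.65 on WT 2, apart from the other WT arrays, the nearest of which read 11.79. It was the single outlying value in 88 groups of 4 arrays examined, where chance flags about 1 in 20 groups. Without WT 2 the difference of Eef2 was 0.076 (limma adjusted p = 0.815). On WT 2, 36 of 41 factors lay below their own mean over 8 arrays.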

How the results depend on the processing

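Over 21 alternative settings, 0 factors were called in 20 and 1 in the fit with an intensity trend, Eef1b2. The related genes gave 1 call, Eef2k, in each fit but those with an intensity trend (2) or probe sets averaged per gene (2), where Pdcd4 was added, and those within replicates 1 and 2 (0) or 3 and 4 (0), which use fewer arrays. Of all genes, 3.24% were called with an intensity trend and 2.64% with probe sets averaged, against 1.96% in the main fit. The median difference of the factors was 0.12 within replicates 1 and 2, and from -0.040 to 0.028 with 1 array left out. With 1 array of the set left out as well, it ranged from 0.054 to 0.19 within replicates 1 and 2 and from -0.10 to -0.051 within replicates 3 and 4. With the replicate number as a block, 0 factors were called (lowest limma adjusted p = 0.303), the median stayed at -0.0073 and Eef2k kept an adjusted p of 0.00902; it changed no call of a named gene. Of 545 alternative values for 25 named genes, 31 changed sign, 509 kept sign and side of the threshold, 2 (Eef2k within each set) lost a call and 3 (Eef1b2, and Pdcd4 in 2 fits) gained one. The cause of the sign changes was not tested. Within replicates 1 and 2 they were Eef1a1 (0.00015), Eif1b (0.038), Eif4e2 (0.25), Eif4g3 (0.17), Eif6 (0.090) and Eif4ebp2 (0.087). Within replicates 3 and 4 they were Eif5a (-0.053), Eif2a (-0.30) and Eif4ebp1 (-0.013). Quantile normalization turned Eif4e2 (0.023) and Eif4g3 (0.032), and array weights Eif2a (-0.048). The mean of probe sets turned Eif6 (0.086), as did its other probe set (0.21), and 2 other probe sets of Eif4g2 read 0.21 and 0.040. With 1 array left out, Eef1a1 ranged from -0.031 to 0.012, Eif2a from -0.13 to 0.093, Eif4e2 from -0.20 to 0.17, Eif4g3 from -0.10 to 0.047, Eif5a from -0.018 to 0.097 and Eif6 from -0.089 to 0.044. Over all genes the count called was 224, and 370 with an intensity trend, 98 to 149 with any WT array left out (fewest without WT 4), 133 and 144 on leaving out RaptorKO 1 or RaptorKO 3, 13 within replicates 1 and 2 and 87 within replicates 3 and 4. Probe sets that were dim, as for Eif4e and Eef1a2, limit what the arrays show of those genes.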
